A study of Drosophila melanogaster with 3 samples.

Results

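The genes described here run the cell division cycle and copy the genome. They are a list of 40 protein-coding genes given by name, and all 40 were found by symbol among 13922 protein-coding genes on the annotated arms of the RefSeq table for the Drosophila melanogaster Release 6 assembly, the build called dm6. By role they form 3 classes, with 19 genes for entry into and passage through mitosis, 9 for the step from G1 into S phase, and 12 for DNA replication. Open chromatin was measured by ATAC-seq, which maps accessible DNA as the places where a transposase can cut and tag it. The samples were wild-type (WT) pupal abdominal epidermis with no allele or treatment named, in 3 replicates of 50 pupae each, taken 38 to 45 h after puparium formation (APF). Pupae were pooled within a replicate. Internal organs were dissected away, so the cells are those that stayed attached to the cuticle. The authors deposited 1 merged peak list for all replicates, so no value below has a replicate error and no test between samples could be made.

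Cyclin-dependent kinases drive the cycle. CycD with Cdk4 and CycE with Cdk2 move cells from G1 into S phase and relieve the hold of the retinoblastoma protein Rbf on the transcription factor E2f1 with its partner Dp, which activates replication genes. The origin recognition complex, dup (the fly Cdt1) and the Mcm helicase prepare and open origins. Cyclins A, B and B3 with Cdk1 take cells into mitosis once the phosphatase encoded by stg has activated Cdk1. In the pupal abdomen the diploid histoblasts divide and replace the larval epidermal cells, and they later stop dividing and differentiate.

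A peak was counted at a gene when its summit lay within 500 bp of either annotated end of that gene. Other peaks were given to the gene when their summit was nearer to its ends than to those of any other protein-coding gene, and the sequence for which this holds is called the gene's domain. The table gives no strand, so a gene-end peak may lie at the start or at the far end of a gene. Fold enrichment is the caller's own ratio of overlapping reads at the summit (the pileup) to the local background. The 40 genes held 116 of 34718 peaks, of which 60 were at their ends and 56 elsewhere in their domains. Fold enrichment over the whole list had a median of 2.01 and quartiles of 1.73 and 2.40, and the median pileup of 149 reads had a 95% Poisson interval of 126 to 175, which covers counting error only. Gene-end peaks were found at 8 of 8 epidermal marker genes, and also at 4 of 4 muscle, 3 of 3 hemocyte and 3 of 4 neuronal markers. They were found at 1 of 3 fat body, 1 of 2 gut and 1 of 2 germline markers, against 65.6% of all protein-coding genes. Of 3 germline markers listed, 2 were found among the annotated protein-coding genes. The share of the signal that came from cells other than epidermis was not tested. The 40 genes lay on 2L (9), 2R (12), 3L (5), 3R (9) and X (5), and 0 lay on chromosome 4.

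A gene-end peak was present at 38 of the 40 cell cycle genes, or 95% (exact binomial 95% interval 83.1 to 99.4, counting error only), against 65.6% of all protein-coding genes. By class the counts were 18 of 19 mitotic genes, 9 of 9 G1/S genes and 11 of 12 replication genes. The 2 genes without one were twe and Mcm3. The germline gene twe encodes the second Cdc25 phosphatase, used in meiosis, and its nearest summit was 677 bp away with a fold enrichment of 1.53. Mcm3, a subunit of the replicative helicase, had its nearest summit at 1066 bp with a fold enrichment of 2.35. A summit stood at both ends of 9 of the 40 genes (22.5%), against 14.8% of all genes, and these were 6 mitotic, 2 G1/S and 1 replication gene.

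Most mitotic and replication genes had close neighbours. Both ends lay within 1000 bp of an end of another gene at 28 of the 40 genes (70.0%), against 59.2% of all protein-coding genes. By class this held for 14 of 19 mitotic genes (73.7%), 10 of 12 replication genes (83.3%) and 4 of 9 G1/S genes (44.4%). Among genes placed like this, a summit stood at an end of 27 of the 28 (96.4%), against 72.2% of all genes so placed. Of the 12 cell cycle genes with at least 1 isolated end, over 1000 bp from any other gene's end, 8 had a summit at such an end (66.7%), against 43.0% of all genes with an isolated end. For the 2 replication genes in that set the count was 0.

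With all gene ends counted, the height of the gene-end peaks was close to that of other genes. In bulk tissue, fewer cells with an open site and a less open site in each cell cannot be told apart. The highest gene-end peak per gene had a median fold enrichment of 2.49 over the 38 genes, against 2.47 over the 9127 protein-coding genes that had one. At isolated ends the medians were 2.80 over 8 genes, against 2.34 over all genes. Where genes are ranked in what follows, each stands for its highest gene-end peak by fold enrichment. The class medians were 2.58 for mitosis, 2.42 for G1/S and 2.41 for replication. Their 95% order-statistic intervals, 2.36 to 2.94, 2.13 to 3.06 and 1.95 to 2.74, overlapped widely. A fold enrichment of 3 or more was reached by 6 of the 40 genes (15.0%), against 10.7% of all genes. These were CycA, CycB3 and polo among the mitotic genes, CycD and dap among the G1/S genes, and dup among the replication genes.

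**Figure D1:**
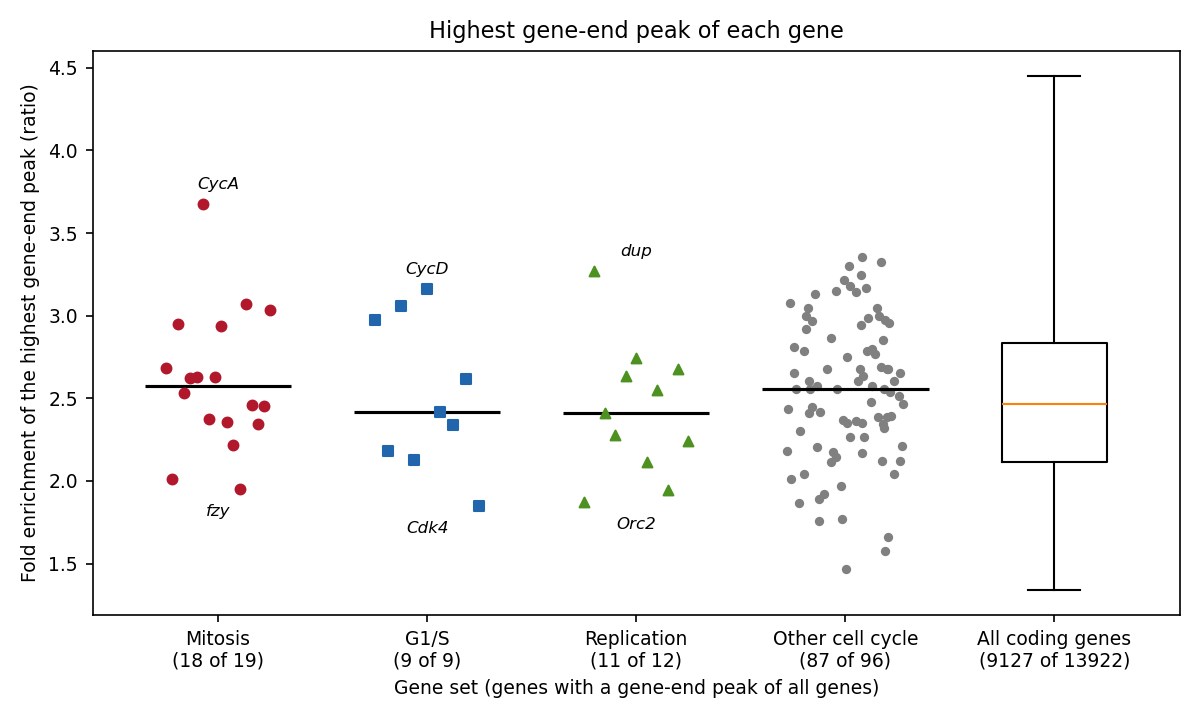
Each point is 1 gene, placed by the fold enrichment (ratio) of its highest gene-end peak, with lines at the medians; the box shows the quartiles, median and full range over all protein-coding genes with such a peak. Grey points are the 87 of 96 other cell cycle genes that had one (median 2.55). The 3 classes overlap, with medians of 2.58, 2.42 and 2.41 against 2.47 over all genes, and CycA stands highest at 3.68.

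Among the mitotic cyclins, Cdk1 and stg, the 3 cyclins had the highest fold enrichments. CycA had 1 gene-end peak (chr3L:11832413-11833695), 1283 bp wide, with a fold enrichment of 3.68 and a pileup of 231 reads (95% Poisson interval 202 to 263) over a background of 62.1. As a share, 0.776% of all protein-coding genes had a higher one. The summit lay 355 bp inside the gene. CycB3 followed at 3.07 (chr3R:24870360-24871016, 657 bp wide, pileup 188 over 60.5, summit 85 bp outside), and CycB had a peak of 2.95 at one end and of 1.90 at the other. Their kinase Cdk1 was lower, with 2 summits at the same end at 2.53 and 2.09.

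The gene stg, whose product removes the inhibitory phosphates from Cdk1 and times divisions in the fly, had a wide peak of middling height. Its single gene-end peak (chr3R:29255214-29256919) was 1706 bp wide, the widest among the 38 genes, and 0.474% of all protein-coding genes had a wider one at their highest gene-end summit. Its pileup of 226 reads was the fourth highest of the 38, and over a local background of 95.9 reads its fold enrichment was 2.34. The summit lay 69 bp inside the gene. In the 10 kb on each side of the gene lay 6 summits, none of them nearer to stg than to another protein-coding gene, against a median of 8 for the 40 genes and 7 for all genes.

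The mitotic kinases polo, aurA and aurB had peaks of 3.04, 2.46 and 2.63. At polo, the Polo-like kinase gene, summits stood at both ends (3.04 and 2.80), and the taller one (chr3L:20309816-20310721, 906 bp wide, pileup 185 over 60.3) lay 324 bp inside the gene. The lower one lay 131 bp from polo and 35 bp from alphaSnap. At aurA and aurB the tallest summit was nearer to an end of a neighbour. It lay 26 bp from CG3281 and 293 bp from aurA, and 20 bp from Stam and 422 bp from aurB. A second summit stood 8 bp inside aurA, at 2.35, and the other 2 summits of aurB were nearer to Dnz1.

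Genes that end mitosis ranged from 1.95 to 2.68. The anaphase activator gene fzy had the lowest value of the mitotic genes when each is taken at its highest gene-end peak, with 1.95 (chr2L:16310218-16310790, 573 bp wide, pileup 137 over 69.6), and it lay 13 bp from cni but 217 bp from fzy. Its relative fzr, which keeps the anaphase-promoting complex active in G1 and in endocycles, had peaks at both ends with values of 2.68 each. Securin (pim) had 2.38, with the summit 5 bp from Cand1 and 277 bp from pim, and thr, the gene of the separase subunit, had 2.22. The centralspindlin genes of cytokinesis differed, with 2.62 at pav and 2.01 at tum (chr2R:13858622-13858771, 150 bp wide, pileup 148 over 73.2, summit 12 bp outside).

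The spindle checkpoint genes ranged from 2.36 to 2.94. BubR1 had 2.94 at one end and 1.82 at the other, Bub1 had 2.63, Bub3 had 2.45 and mad2 had 2.36. The pileup at Bub1, 237 reads over a background of 89.5, was the highest of the 38 genes although its fold enrichment was near the middle. The summit at Bub3 was 11 bp from that gene and 219 bp from Cap-D2, and the one at mad2 was 70 bp from that gene and 175 bp from the EGF receptor ligand gene vn.

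Among the G1/S genes, CycD and dap had the highest fold enrichments at gene ends. The pileup of CycD was below the class median of 192 reads. CycD had 2 summits at the same end, with 3.16 (chrX:15909097-15909829, 733 bp wide, pileup 183, summit 13 bp outside) and 3.14 (427 bp outside), both over 57.2 reads, the lowest background that occurs in the list. The gene dap, whose product inhibits CycE with Cdk2 and acts when fly cells leave the cycle, had a gene-end peak of 3.06 (chr2R:9712093-9713065, pileup 228 over 73.9, 973 bp wide, summit 22 bp outside). A second summit 657 bp outside dap, just beyond the limit, was slightly taller at 3.16 (chr2R:9711312-9711817, pileup 234). With 228 and 234 reads the 2 summits differed by less than their counting error. The repressive E2F gene E2f2 followed with 2.97 at one end (chr2L:21153904-21154204, 301 bp wide, pileup 182 over 60.5, summit 228 bp outside) and 2.35 at the other.

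The remaining G1/S genes had lower ratios. Cdk2 had 2.61 over a background of 67.5 reads, and backgrounds at the other five ran from 78.9 to 102. Among these, Rbf had 2.42, CycE 2.34 (chr2L:15747562-15748296, pileup 212 over 90.0) and the activating gene E2f1 2.18 (chr3R:21660375-21661099, pileup 193 over 87.9, summit 391 bp inside). The lowest were Dp at 2.13 (chr2R:13222262-13222541, 280 bp wide, pileup 199 over 93.0) and Cdk4 at 1.85 (chr2R:16585637-16585885, 249 bp wide, pileup 190 over 102, summit 325 bp outside). The Dp summit was 2 bp inside the gene and 24 bp from Fsn. At Cdk4 all 6 summits had backgrounds between 102 and 107 reads.

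The order of the classes therefore depended on the measure. The median pileup at the highest gene-end peak was 181 reads for mitotic genes, 192 for G1/S genes and 159 for replication genes, against 171 for all genes, and the median background was 65.9, 78.9 and 66.8, against 64.6. In 56.8% of pairs of a mitotic and a G1/S gene the mitotic gene had the higher fold enrichment, and in 34.9% it had the higher pileup, taken as the highest at any of a gene's gene-end peaks. A G1/S gene exceeded a replication gene in 54.5% of pairs by fold enrichment and in 89.9% by pileup. Mitotic genes exceeded replication genes in 61.1% and 66.7% of pairs. The peaks of mitotic genes had a median width of 642.5 bp, against 302 bp for G1/S genes, 359 bp for replication genes and 467 bp for all genes.

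**Figure D2:**
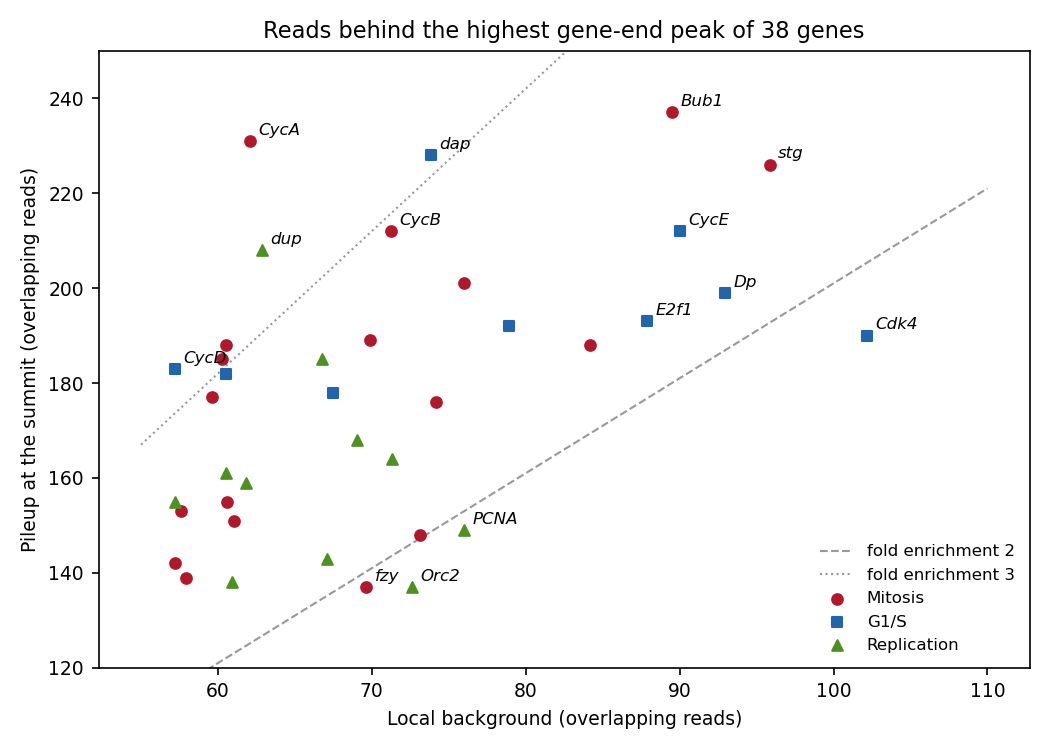
Each point is the highest gene-end peak of 1 gene, with its recovered pileup (y, overlapping reads) against the local background (x, overlapping reads); grey lines mark fold enrichments of 2 and 3. The G1/S genes range from 178 to 228 reads of pileup, the replication genes from 137 to 208, and stg, CycE, Dp and Cdk4 combine high pileup with backgrounds of 90.0 to 102 reads.

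Replication genes had the lowest median pileup of the 3 classes. The highest among them was that of dup, the licensing factor that brings the helicase to origins, with a peak of 3.27 (chr2R:15380565-15381547, 983 bp wide, pileup 208 over 62.9, summit 25 bp outside dup and inside the neighbouring gene SRPK). Its inhibitor geminin, which blocks a second licensing in the same cycle, had 2.12 with 143 reads. The sliding clamp gene PCNA, a known E2F target, was second lowest at 1.95 (chr2R:20262789-20262945, 157 bp wide, pileup 149 over 76.0, summit 12 bp inside), with 1.58 at its other end. The summit of 1.58 lay inside Hsl, 370 bp from an end of that gene and 398 bp from PCNA. The lowest was Orc2 at 1.88 (chr3R:13967221-13967679, 459 bp wide, pileup 137 over 72.6, summit 458 bp outside Orc2 and inside the neighbouring gene rdx), where a second summit of 1.75 lay closer to rdx than to Orc2.

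The other subunits of the origin recognition complex had higher values than Orc2, with 2.74 at Orc1 (chr2R:7525404-7525857, 454 bp wide, pileup 185 over 66.8, summit 14 bp outside), 2.55 at Orc5 and 2.28 at Orc6. The helicase genes lay within a narrow range. Their highest gene-end peaks were 2.68 at Mcm7 (chr3L:8891140-8891400, 261 bp wide, pileup 155 over 57.2, summit 310 bp outside and 94 bp from dally), 2.63 at Mcm2, 2.41 at Mcm5 and 2.24 at Mcm6, with pileups from 138 to 168 reads, and Mcm3 had none. For these counts the Poisson intervals overlap, since that of 138 reads runs to 163 and that of 168 begins at 144.

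The summits lay close to the annotated ends. Among genes with a gene-end peak, the highest one was within 100 bp of the end at 23 of 38 cell cycle genes (60.5%), against 46.8% of all genes, and the median distance was 62.5 bp against 117 bp. It lay inside the gene at 7 of 38 (18.4%), against 30.8% of all genes. An end of another gene stood within 500 bp of the highest summit at 29 of the 38 (76.3%), against 60.4% of all genes with a peak, with counts of 14 of 18 mitotic, 5 of 9 G1/S and 10 of 11 replication genes. Where this is so, the list cannot say to which gene the accessible site belongs. The other end was nearer than the own end at 8 of 38 (21.1%, against 27.5%). These were aurA, aurB, fzy and pim among the mitotic genes, and Mcm2, Mcm5, Mcm7 and Orc5 among the replication genes.

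Some short gaps between neighbours held 2 separate summits, with 1 near each gene. Between Mcm2 and RPA1, which encodes the large subunit of the single-strand binding protein of replication, the gap was 519 bp. One summit was 32 bp from Mcm2 (chr3R:8264829-8265079, 2.63) and the other 28 bp from RPA1 (chr3R:8264051-8264610, 2.63), with 166 and 161 reads. Likewise, summits stood 16 bp from Mcm5 and 12 bp from Art1, and 13 bp from Cdk1 and 41 bp from mRpS7. At least 2 gene-end summits were present at 19 of the 40 genes (47.5%), against 26.1% of all genes. These were 10 mitotic, 4 G1/S and 5 replication genes.

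**Figure D3:**
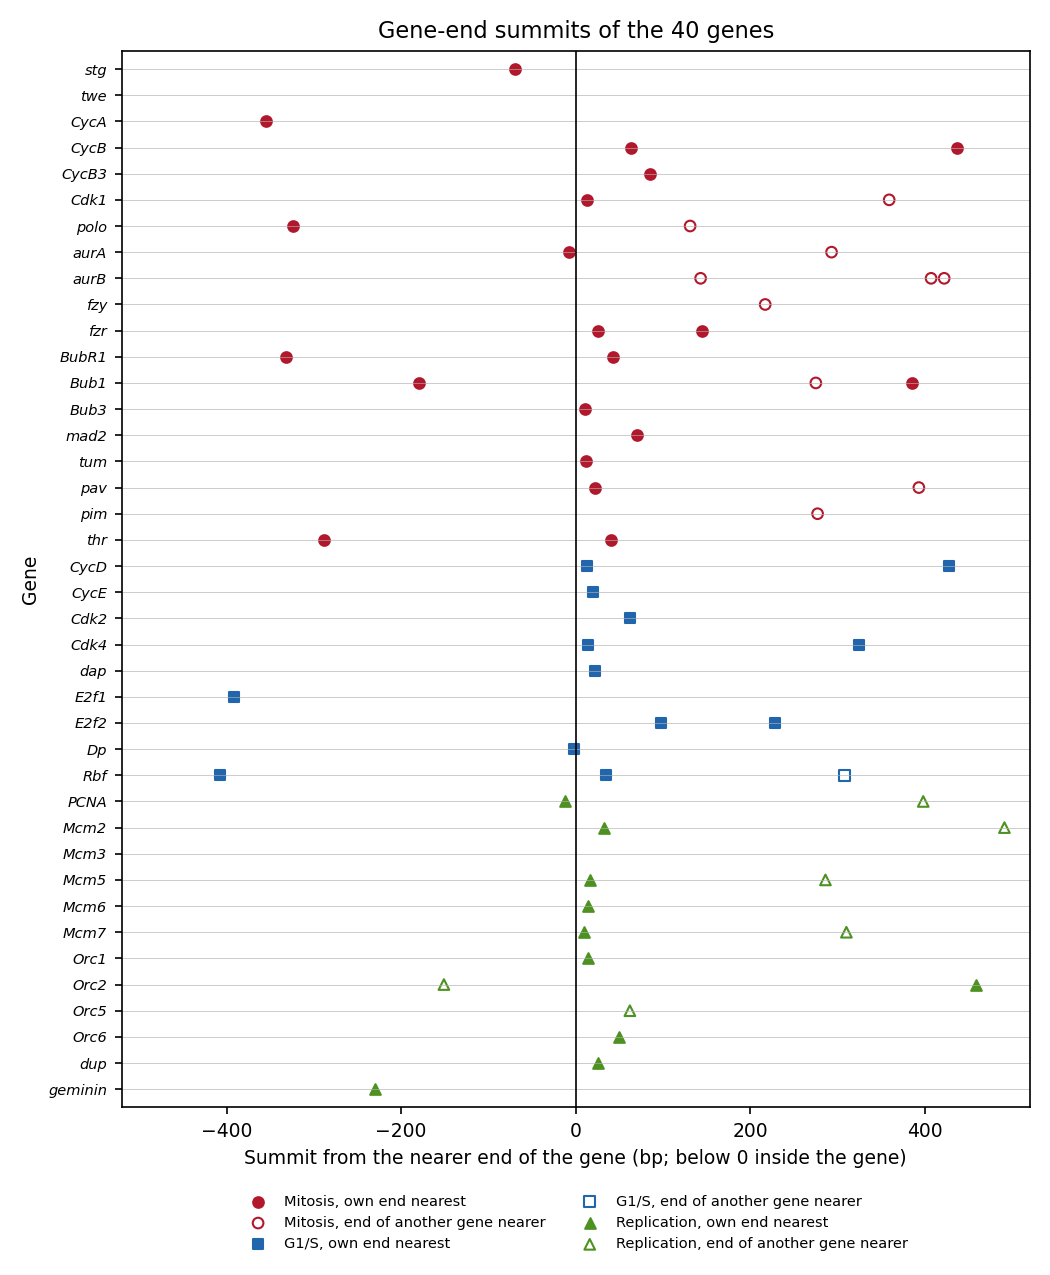
Each row is 1 gene and each symbol 1 gene-end summit, placed by its distance in bp from the nearer end of the gene, with negative values inside the gene; open symbols lie nearer to an end of another gene. Of 60 summits, 47 lie outside the gene and 17 are nearer to another gene, 1 of them (at Rbf) at a G1/S gene.

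Just inside the limit of 500 bp lay summits of Mcm2 at 491 bp (2.63), Orc2 at 458 bp (1.88) and CycB at 437 bp (1.90). Just outside it lay those of BubR1 at 605 bp (1.69), dap at 657 bp (3.16) and E2f2 at 704 bp (1.83).

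Away from gene ends the classes differed in number of peaks. At least 1 other summit lay in the domain of 7 of 9 G1/S genes, 4 of 19 mitotic genes and 2 of 12 replication genes, 13 of 40 in all (32.5%), against 40.8% of all protein-coding genes. These counts depend on the 500 bp limit. The G1/S genes dap, E2f2 and Cdk2 each counted through 1 summit, at 657, 704 and 903 bp. The same held for BubR1 (605 bp) among mitotic genes and dup (796 bp) among replication genes. The G1/S domains held 33 other summits in 99.8 kb, or 3.31 per 10 kb (95% exact Poisson interval 2.28 to 4.64, counting error only). Mitotic genes held 9 in 76.3 kb, or 1.18 per 10 kb (0.540 to 2.24), and replication genes 14 in 66.7 kb, or 2.10 (1.15 to 3.52). Over the 40 genes the density was 2.31 (1.74 to 2.99), against 1.88 over all genes. Single genes set these values, and the intervals treat summits of the same gene as independent. Without E2f1 the G1/S density was 2.22 and that of the remaining 39 genes was 1.79, below the 1.88 of all genes. Without Orc2 the replication density was 0.292. With domains limited to 20 kb the replication density was 1.26, against 2.01 over all genes. With gene ends taken as 1000 bp in place of 500 bp, the densities were 2.90 for G1/S, 0.918 for mitotic and 1.95 for replication genes. Over all genes that density was 1.65.

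E2f1 had the most other summits, 20 in a domain of 41.2 kb (4.85 per 10 kb), and all 20 lay inside the gene, which is 40568 bp long. Of all protein-coding genes 1.14% had more, and the 1222 genes with domains of 20 to 50 kb had a median of 7 (interquartile range 2 to 12), a size range chosen after the values were seen. The fold enrichments at E2f1 ran from 1.43 to 2.97 with a median of 2.05. The tallest summit (chr3R:21641014-21641602, pileup 194 over 64.6) lay 19404 bp from the nearer end and had a fold enrichment of 2.97, against 2.18 at the gene-end peak. The pileups of 194 and 193 reads differed by less than counting error, while the backgrounds were 64.6 and 87.9. Non-coding genes lie within E2f1, and 5 of the 20 summits were within 500 bp of an end of one, such as lncRNA:CR46056 and lncRNA:CR46057.

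CycE, the cyclin whose level sets entry into S phase, had 5 other summits inside its 20570 bp, with values from 1.94 to 2.53. Of these, 4 lay between 1306 and 4608 bp from the end that carries the gene-end peak. The tallest (chr2L:15746207-15746993, pileup 221 over 86.8) and the gene-end peak (pileup 212) differed by less than counting error, and it lay 156 bp from an end of lncRNA:CR44974. Cdk4 had 4 inside the gene, from 1.49 to 2.26, the tallest with 242 reads over 107 (chr2R:16583767-16584228). The genes dap, E2f2, Rbf and Cdk2 had 1 each, and CycD and Dp had 0.

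**Figure D4:**
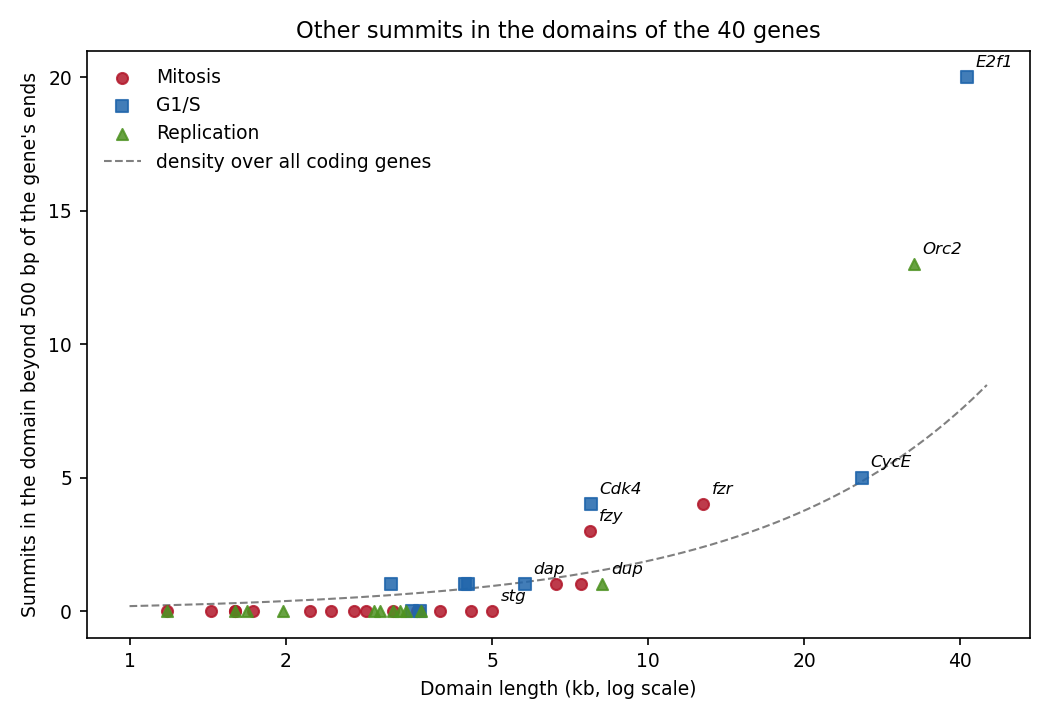
Each point is 1 of the 40 genes, with the number of other summits (y) against the length of its domain (x, kb, log scale); the dashed line is the density of 1.88 per 10 kb over all genes. E2f1 with 20 and Orc2 with 13 lie above the line, CycE with 5 lies on it, and 27 genes have 0.

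The 13 other summits of Orc2 were all inside rdx, the neighbouring gene of a ubiquitin ligase adaptor, and were given to Orc2 only because its end was nearer than either end of rdx. They stood 6905 to 28759 bp from Orc2, with values from 1.48 to 2.84 (highest chr3R:13975988-13976917, pileup 212 over 74.1). The single other summit of dup, at 2.23 (chr2R:15381639-15381983), lay inside SRPK. Thus 14 of 14 other summits of replication genes, 3 of 9 of mitotic genes and 0 of 33 of G1/S genes lay inside another protein-coding gene. These counts rest on few loci: 13 of the 14 lay in rdx, all 3 mitotic ones in cact, and 20 of the 33 belonged to E2f1. Without summits inside another protein-coding gene the densities were 3.31 per 10 kb for G1/S, 0.787 for mitotic and 0 for replication genes. Over all genes this density was 1.54, against 1.88 with every other summit counted.

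Among mitotic genes fzr had the most, with 4 inside its 12248 bp. The tallest of them (chrX:4673108-4674005) had a fold enrichment of 2.76 and a pileup of 200 over 71.9, against 2.68 at each of its 2 gene-end peaks, a difference within counting error. All 3 other summits of fzy were inside cact, an inhibitor gene of the Toll pathway, with the highest at 2.67 (chr2L:16317888-16318583, pileup 217 over 80.6). Bub1 had 1 at 2.43 (chr2L:5284855-5285625, pileup 227) and BubR1 had 1 at 1.69 (chr2R:5973599-5973843). The other 15 mitotic genes had 0, stg and the 3 mitotic cyclins among them. Across the 40 genes the number of other summits followed domain length, with a Spearman correlation of 0.77 over genes that share 1 peak list, and over all 13922 genes it was 0.69.

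**Figure D5:**
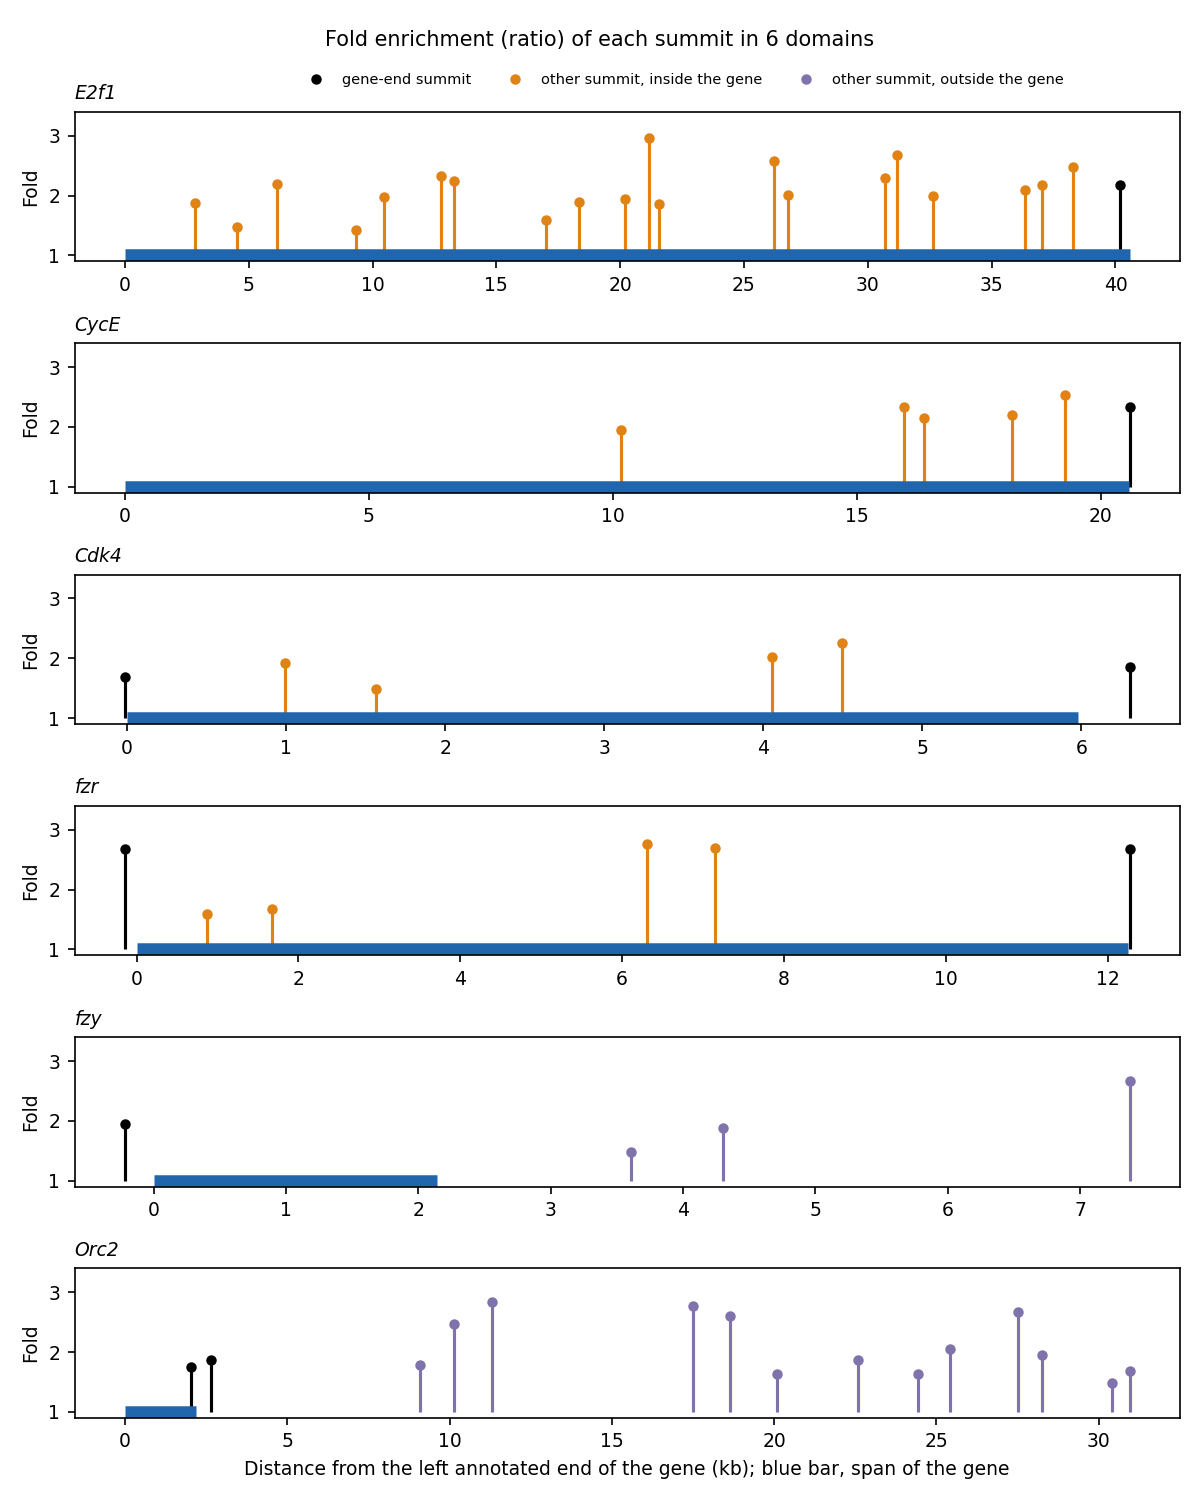
Fold enrichment (y, ratio) of each summit in the domains of 6 genes against the distance from the left annotated end of the gene (x, kb), with the gene as a blue bar. The other summits of E2f1, CycE, Cdk4 and fzr (20, 5, 4 and 4) lie inside the gene, while those of fzy and Orc2 (3 and 13) lie outside it.

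A second list of 96 other cell cycle genes was described in the same way. It holds 46 mitotic, 15 G1/S and 35 replication genes chosen by role, with earlier results of these data known. A gene-end summit was present at 87 of them (90.6%), against the 65.6% of all genes, with 43 of 46, 14 of 15 and 30 of 35 by class. The 9 without one were Cdc23 of the anaphase-promoting complex, the kinesin gene Klp61F, the checkpoint gene Mad1, mip120 of the Myb complex, Mcm10, the primase genes Prim1 and Prim2, the polymerase epsilon gene PolE1 and the flap endonuclease gene Fen1. The median fold enrichment of the highest gene-end peak was 2.55. Both ends lay within 1000 bp of an end of another gene at 79 of the 96 genes (82.3%), against 59.2% of all genes. Among genes placed like this, 71 had a gene-end summit (89.9%), against 72.2% of all genes so placed.

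By class the highest gene-end peaks in the second list were 3.35 at pbl, a cytokinesis exchange factor gene, and 3.30 at Rca1, an inhibitor of the anaphase-promoting complex, among mitotic genes. They were 3.33 at lin-52 of the Myb complex and 3.17 at the Cdk inhibitor gene rux among G1/S genes, and 3.25 at the clamp loader gene RfC38 and 3.18 at the gene of a chromatin assembly factor subunit among replication genes. All of these summits except those of Rca1 and rux were nearer to an end of another gene. The one at pbl lay 433 bp from pbl and 76 bp from CG8281, and the summit 21 bp from pbl had 2.88. In the second list 32 of the 87 highest summits (36.8%) were nearer to another gene's end, against 27.5% of all genes. Other summits per 10 kb numbered 2.86 in the G1/S domains (1.98 to 4.0), 0.998 in the mitotic (0.687 to 1.40) and 1.81 in the replication domains (1.18 to 2.65), against 1.88 over all genes. Single genes weighed on these values too. The domain of vtd made up 102 of the 331 kb of mitotic domains, and Myc held 15 of the 34 G1/S summits. The growth regulator gene Myc had the most with 15, of which 8 lay inside CG12535 and 3 inside Myc, followed by rux with 8, Gnf1 with 6 and Cdc7 with 5. Among mitotic genes pbl, trbl and vtd had 5 each.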

How the data were processed

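The labels name 3 replicates of 1 group. The build was dm6 and the tools were MACS2, BWA, Picard and SAMtools, per the submitters' processing notes. Their versions, settings and the way of merging replicates were not given in the sources used. The deposited list gives, per peak, a fold enrichment (a linear ratio), −log10 p and q values and a display score that was not used. Depth per sample is unknown from the list. The authors' whole-number pileup and background were recovered from fold enrichment, as (pileup + 1) / (background + 1), and the Poisson −log10 p, within 0.002 for all peaks. Coordinates are 1-based. Scripts used Python 3.11.15, pandas 2.3.3 and scipy 1.17.1 and were tested on simulated data. No test was run: lists are described by counts and medians beside all protein-coding genes. The members and lists were chosen with earlier results of these data known. Genes given in full were, in each class, the 3 highest and 2 lowest at gene ends, those without a gene-end peak and the 3 with the most other summits; neighbours are named by position. The second list was named by the 2 highest, those without a peak and the 2 with the most other summits per class. Names for 5 of its genes came from synonyms. Planned searches for promoter motifs and gene starts were not run, since no sequence or strand was used here.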

Additional observations from a re-analysis of the deposited data

How the results depend on the processing

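Shares of genes with a gene-end peak stayed within the exact 95% binomial interval with windows of 250 bp (35 of 40 genes), with the 17359 peaks of highest −log10 q (35 of 40) and with peaks of q under 1e-05 (38 of 40). Over all protein-coding genes the shares at these settings were 52.2%, 52.5% and 62.7%. The mitotic share was 100% within 1000 bp and 100% when the peak interval had to touch the window, against 75.9% and 72.1% of all protein-coding genes. With isolated ends only, the share was 66.7% over all classes and 0% for replication genes, against 43.0% of all genes with an isolated end. The median fold enrichment at such ends was 2.80 over all classes, 2.27 for mitotic and 3.02 for G1/S genes, against 2.34 over all genes. Densities of other summits fell to 1.36 per 10 kb for the 40 genes, 0.524 (mitosis), 2.20 (G1/S) and 1.05 (replication) among the 17359 peaks, against 0.815 over all genes, since fewer peaks enter. Without the gene with the most, they were 2.22 for G1/S, 0.292 for replication and 1.79 for the remaining 39 genes, against 1.88 over all genes. With domains limited to 20 kb the replication density was 1.26 and that of the 40 genes 2.08, against 2.01. A pair of alternatives was chosen after seeing the data. Without summits inside another coding gene the density was 1.61 for the 40 genes and 0 for replication, and leaving out summits at ends of non-coding genes moved no class beyond its interval. Mitotic genes exceeded G1/S genes in 34.9% of pairs by pileup and 48.8% by −log10 q, against 56.8% by fold enrichment, and G1/S genes exceeded replication genes in 89.9% and 68.7%, against 54.5%. Fold enrichment sets the pileup over the local background, whose median was 65.9 reads for mitotic, 78.9 for G1/S and 66.8 for replication genes. Why the backgrounds differed was not tested. Assignment to gene starts and motif shares were not run. No paired analysis was possible because the single merged list carries no values per replicate, and for the same reason no replicate could be left out.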

Other observations

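In the second list, 2 further pairs of neighbouring cell cycle genes had the same gene-end peaks. The DNA damage kinase gene lok and the condensin gene barr shared 2 summits, with fold enrichments of 2.58 and 2.56. Zw10, a kinetochore gene, and the kinesin gene Klp3A shared 2, with 2.78 and 2.75. These pairs were chosen after their values were seen, and how often neighbouring genes of other roles share peaks was not tested.

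With each gene of the second list taken at its highest gene-end peak, the lowest fold enrichments were those of 2 centromere genes. They were 1.47 at cal1, which loads the centromeric histone, and 1.58 at cid, which encodes that histone, with 102 and 100 reads at the summit. Both were also chosen after their values were seen.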
